A study of Mus musculus with 6 samples.

Results

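The genes described here encode the proteases that cut the extracellular matrix and the cell surface, with their inhibitors: matrix metalloproteinases (MMPs), ADAMs, ADAMTS proteases, ADAMTS-like proteins and TIMPs, plus Reck, Htra1 and Bmp1. They were taken by gene symbol alone from the probe annotation, and 81 of the 19057 genes tested matched: 21 MMPs, 32 ADAMs, 17 ADAMTS genes, 4 ADAMTS-like genes, 4 TIMPs and the 3 single genes. RNA came from mouse embryonic fibroblasts, connective tissue cells grown out of dissociated embryos, of the strain C57Bl/6NCr. One group was wild type (Lasp1+/+) and the other carried a disruption of Lasp1 on both chromosomes (Lasp1-/-, here called knockout), with 3 Illumina bead arrays in each and no treatment named. Lasp1 codes for an actin-binding LIM and SH3 domain protein of focal adhesions, and the series title speaks of cell migration and tumour formation. Whether the arrays came from separate embryos or cultures is not in the labels, so p-values reflect only the spread among these arrays, which could be technical. How the gene was disrupted, embryonic age and cell passage were not given in the sources used here.

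MMPs are zinc proteases made as inactive precursors. Together they cut most proteins of the matrix, and many also cut growth factors and cell surface proteins. ADAMs sit in the cell membrane and shed the outer parts of receptors and ligands, while ADAMTS proteases are secreted and cut proteoglycans such as versican and aggrecan or process procollagen. TIMPs block the active site of MMPs and, for TIMP3, also that of several ADAMs and ADAMTS proteases. In fibroblasts these enzymes govern how a cell remodels and moves through collagen.

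Levels are given as linear probe intensities, with each array scaled by the authors to a median of 1000. Probes of silent genes read close to that median rather than 0, so folds of dim genes are understated. A gene is called bright here if its mean in wild type or in knockout exceeded 991, the median over all probes, and 55 of the 81 genes met this. Bright genes close to 991 are not separable from silent ones. Each gene is represented by its probe with the highest mean. A log2 difference is the knockout mean minus the wild-type mean, given with its standard error (SE) from limma, a linear model for arrays, fitted over all 19057 genes. A gene is said to have risen or fallen where its p-value, adjusted by Benjamini-Hochberg over all genes, was under 0.05.

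The samples had the following features as a whole. Upper quartiles ran from 2018 to 2330, and array pairs had rank correlations (Spearman) of 0.914 to 0.925 in the same genotype and 0.904 to 0.927 across genotypes. Lasp1 itself fell from 144104 ± 7634 to 50898 ± 1072 (SD, n = 3 each), and where its probe lies relative to the disruption was not determined here. All 12 fibroblast markers examined were bright, among them Col1a1, Vim and Thy1, and 6 of them fell in knockout, with a summed level of 1020250 to 1184570 in wild type and 828058 to 885140 in knockout. Of 8 macrophage markers Lyz2 rose, with sums of 11118 to 12440 and 14085 to 14877. Cd14 was higher in every knockout array, at 2139 to 2490 against 1611 to 2012, though short of a call (limma adjusted p = 0.0771). Ptprc, Itgam and Csf1r had means of 878 to 1144, with Itgam also higher in every knockout array. Adgre1, Aif1 and Tyrobp had means of 1128 to 1363 and overlapping arrays. Of the 8, Aif1 alone was not higher on average in knockout (-0.0013). Of 8 epithelial markers 3 fell (Krt14, Krt8 and Krt19), and the list's sums were 23718 to 29060 in wild type and 11074 to 11887 in knockout. Krt14, with means of 15557 and 2565, made up most of that fall. Krt18 and Cldn4 were higher in every knockout array without passing (0.18 and 0.31). Epcam, Cdh1 and Krt5 had means of 809 to 1065 and did not pass. In bulk RNA fewer cells of a type and less RNA per cell cannot be told apart, and the part of these markers in the results below was not tested.

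The proteases and inhibitors went in both directions. The collagenase gene Mmp13 and the inhibitor gene Timp1 rose in knockout fibroblasts, by 2.37-fold and 1.48-fold. Adamtsl3, Mmp11, Htra1, Adamts1, Adamts4, Mmp17 and the inhibitor gene Timp3 fell, by 2.47-fold to 1.46-fold. None of the 32 ADAM genes passed the limma test, against 3 at an unadjusted p under 0.05, a level that 18.6% of all genes reached. These 9 called genes are 11.1% of the 81, beside 6.28% of all genes called by the same test (2.19% higher and 4.08% lower in knockout). Among bright genes the shares were 16.4% of 55 members and 9.51% of 12577 genes. The members were chosen with earlier results of these data known, so these shares describe them and are not a test. The arrays of the genotypes did not overlap for 22 of the 81 (27.2%), beside 21.3% of all genes. The median log2 difference of the 81 was -0.01 and that of all genes -0.02. After quantile normalization 7 members rose and 8 fell, beside 1009 rises and 1083 falls among all genes, in place of 2 and 7 members and of 418 and 778 genes. The number of falls among the members was 4 without knockout replicate 3, and 4 members rose when wild type replicate 2 was left out.

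**Figure D1:**
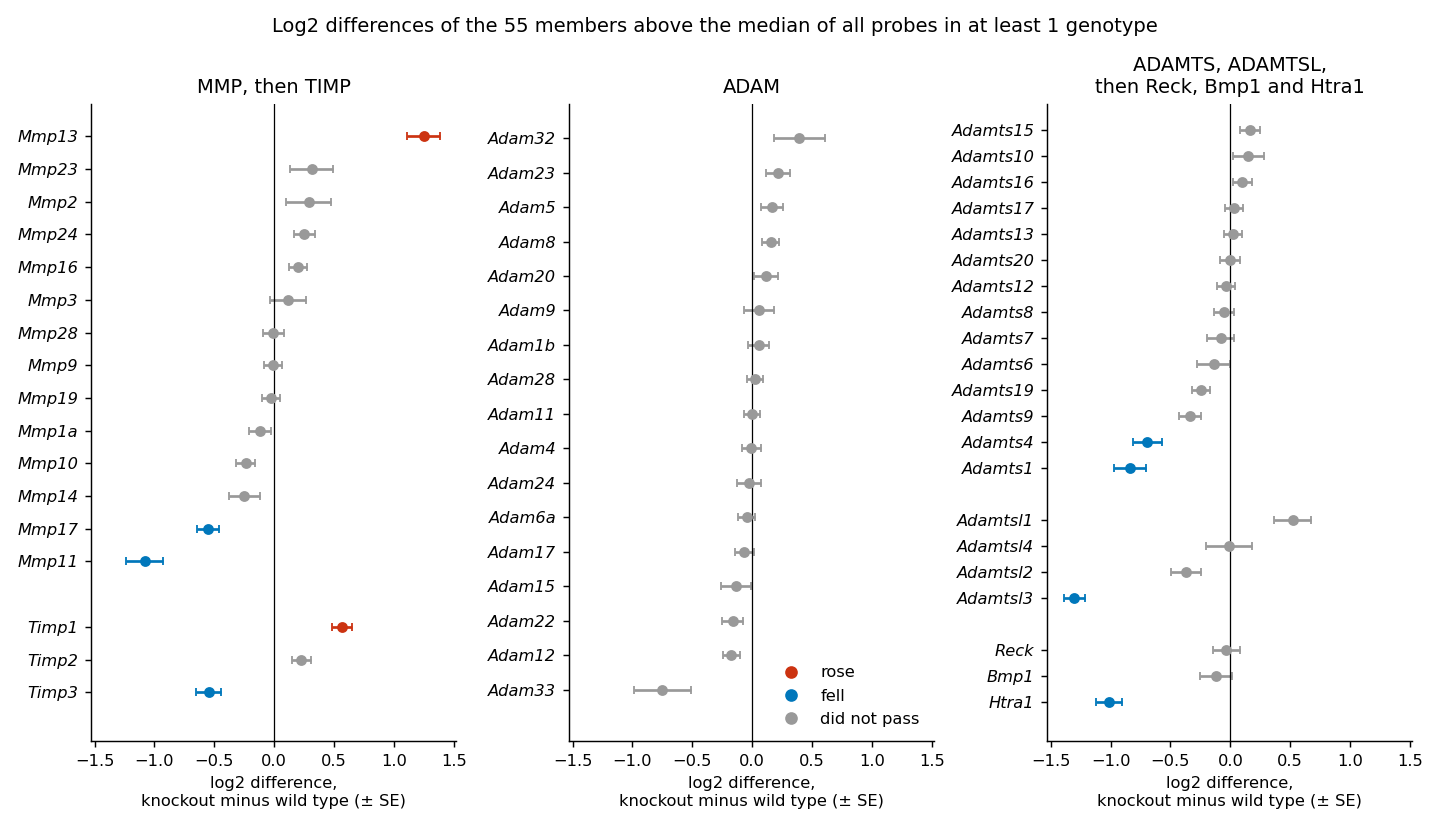
Log2 difference (knockout minus wild type) with its SE for the 55 bright members, grouped by family; red points rose, blue points fell and grey points did not pass limma. Mmp13 lies farthest to the right at 1.25 and Adamtsl3 farthest to the left at -1.30, and all 17 bright ADAM genes are grey.

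The members of the MMP family that can cut fibrillar collagen, the collagenases, include Mmp13, which lies in a run of 10 neighbouring MMP genes on mouse chromosome 9, of which 9 were measured. Promoter sequences of this run are shown because most of its measured genes share letters, at differing distances from the start, while limma called Mmp13 and none of the others. In the RefSeq promoter table (GRCm38.p6), which matched 50 of the 81 members, the 250 bases before the start were searched on both strands for TGANTCA, the binding sequence of AP-1 (a Jun and Fos factor), and for TATAAA, the TATA box. Below are the 120 bases before the start of the 4 bright genes of the run, 5′ to 3′ on the plus strand, with matches to TGANTCA and TATAAA in capitals. They lie at chr9:7272394-7272513 for Mmp13, chr9:7445702-7445821 for Mmp3, chr9:7464021-7464140 for Mmp1a and chr9:7502222-7502341 for Mmp10.
Mmp13: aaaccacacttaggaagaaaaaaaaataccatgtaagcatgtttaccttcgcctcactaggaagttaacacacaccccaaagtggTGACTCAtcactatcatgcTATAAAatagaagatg
Mmp3: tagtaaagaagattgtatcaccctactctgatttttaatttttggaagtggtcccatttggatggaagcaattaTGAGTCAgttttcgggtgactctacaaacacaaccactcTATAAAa
Mmp1a: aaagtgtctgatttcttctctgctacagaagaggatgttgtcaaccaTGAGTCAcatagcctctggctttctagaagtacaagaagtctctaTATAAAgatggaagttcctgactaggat
Mmp10: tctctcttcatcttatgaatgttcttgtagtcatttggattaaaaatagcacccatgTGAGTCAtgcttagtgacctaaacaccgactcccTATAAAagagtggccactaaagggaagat

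Each of the 4 windows holds 1 match to TGANTCA followed by 1 match to TATAAA, and the motifs do not overlap. Over the whole run, 8 of the 9 measured genes had TGANTCA, and 7 also had TATAAA. Of 32851 promoter windows in the table, 6.75% held TGANTCA, 12.4% held TATAAA and 1.21% held both. None of the 7 other MMP genes with a window held TGANTCA, nor did any of the 4 TIMP genes. Of the 7 called members with a window, Mmp13 alone held it. The 6-letter core ACCACA of RUNX factors (searched on both strands as TGTGGT and ACCACA) stood 118 bases before the start of Mmp13. It was also found in Mmp1b and Mmp7 of the run and in Mmp14 and Mmp23 outside it, so in 3 of the 9 windows of the run and 5 of 16 MMP windows, beside 14.0% of all windows. Such matches describe letters in a window and do not show that a factor binds there.

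Mmp13 codes for collagenase-3, which cuts the fibrillar collagens of cartilage and bone. Its probe read 19853, 29051 and 25255 in wild type and 54329, 64482 and 55665 in knockout. All 3 knockout arrays were above all 3 wild-type arrays, and the smallest gap between the groups exceeded the range within each. The log2 difference was 1.25 ± 0.13 (limma adjusted p = 0.000763), with a 95% interval of 1.92-fold to 2.93-fold. Of its other probes, a dimmer one also rose, from 1831 ± 132 to 2891 ± 165 (SD, n = 3 each), and the third read 1082 ± 83.7 and 1106 ± 76.3, near the median of the arrays. The mean over its 3 probes gave a difference of 0.65, smaller than that of the bright probe by over 1.5 times as a fold, and was still called.

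The bright neighbours of Mmp13 did not pass the limma test. Mmp3, or stromelysin-1, which cuts proteoglycans and activates other MMP precursors, read 5199, 7446 and 7939 in wild type and 7814, 6735 and 7446 in knockout. At this probe the arrays of the genotypes overlapped, and the difference was 0.12 with a 95% interval of -0.22 to 0.45. Of its other probes, the brighter one also overlapped (0.11). The dimmest read 1626, 1843 and 1501 in wild type and 1851, 2264 and 2057 in knockout, without overlap. It did not pass (0.31 ± 0.10, limma adjusted p = 0.147 over all probes). Mmp10, or stromelysin-2, read 2693 ± 137 and 2284 ± 176 (SD, n = 3 each), with the 3 knockout arrays below the 3 wild-type arrays but a limma adjusted p of 0.145. Mmp1a, a rodent counterpart of interstitial collagenase, read 1830 ± 31.6 and 1693 ± 192 (limma adjusted p = 0.588). Mmp12 (macrophage elastase), Mmp1b, Mmp8 (neutrophil collagenase), Mmp20 (enamelysin) and Mmp7 (matrilysin) were below the median of all probes in both genotypes. The protein-coding genes flanking the run, Dync2h1, Dcun1d5, Tmem123 and Birc2, were not called either. Their differences were -0.03, 0.02, 0.13 and 0.26. In this region, then, Mmp13 alone was called, although a difference between its response and those of its neighbours was not itself tested.

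**Figure D2:**
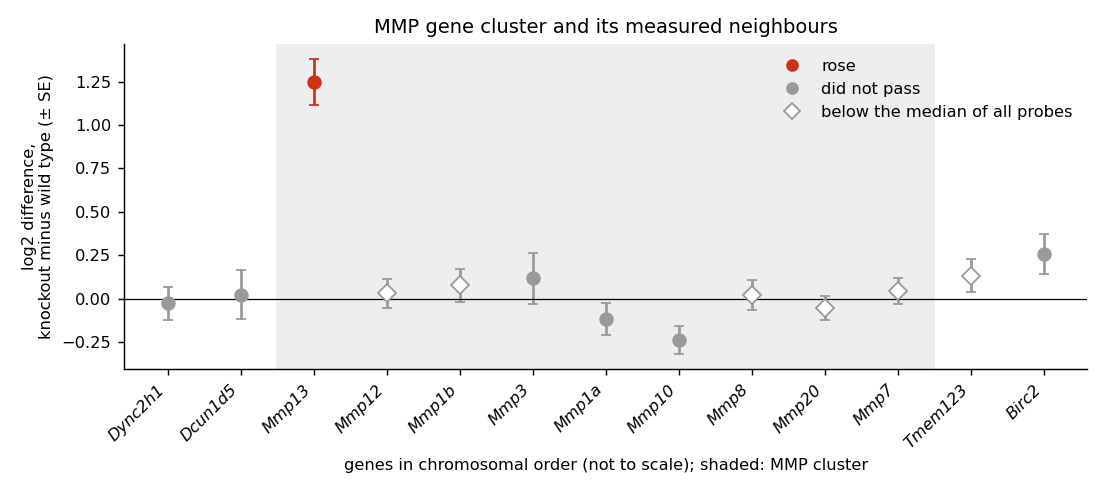
Log2 difference (knockout minus wild type) with its SE for the measured genes of the MMP run on mouse chromosome 9 (shaded) and the 2 measured genes on each side, in chromosomal order and not to scale. Mmp13, at the edge of the run, is at 1.25, and the 12 others lie between -0.24 and 0.26; open diamonds are genes below the median of all probes.

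The factors that bind the AP-1 sequence were part of a list of related genes. Fosl2, which codes for the Fos family member FRA2, rose from 27682 ± 1765 to 41240 ± 2751 (SD, n = 3 each), a difference of 0.57 ± 0.08 (limma adjusted p = 0.00363). Jun, Junb, Jund, Fos and Fosb did not pass, with differences of 0.09, 0.13, -0.31, 0.18 and 0.0049. Runx1 differed by -0.10 and did not pass. Fosl1 and Runx2 were on the list and not among the genes tested. Of the 6 measured Jun and Fos family genes 1 rose, beside 2.19% of all genes, and so few genes give no result about the family. The part of these factors in the Mmp13 difference was not tested.

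Mmp11 and Mmp17 were the MMP genes that fell. Mmp11, or stromelysin-3, is made by fibroblasts around tumours and differs from most MMPs in being activated inside the cell by furin-type proteases. It read 18806, 26683 and 21007 in wild type and 12067, 8562 and 10748 in knockout. All knockout values were below all wild-type values, and the wild-type arrays were the more spread. The difference was -1.08 ± 0.15, or 2.12-fold lower (limma adjusted p = 0.00329). Mmp17 codes for MT4-MMP, which is held at the cell surface by a lipid anchor. It read 2107, 2523 and 2129 in wild type and 1447, 1623 and 1515 in knockout, again without overlap, a difference of -0.56 ± 0.09 (limma adjusted p = 0.00749). It was not called without knockout replicate 3 (adjusted p = 0.0534, with 0.000965 to 0.0534 over 14 alternatives).

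The gelatinases and membrane-type MMPs held no further called gene. Mmp2, the gelatinase that fibroblasts secrete, read 112544, 207957 and 167220 in wild type and 204525, 192016 and 181159 in knockout. Wild type replicate 1 was the lowest and wild type replicate 2 the highest of the 6, so the genotypes overlapped, and the 95% interval of the fold ran from 0.911 to 1.63. Mmp14, or MT1-MMP, the membrane collagenase that activates the Mmp2 precursor together with TIMP2, read 172943, 235499 and 186860 in wild type and 175945, 144603 and 178441 in knockout. These also overlapped (difference -0.25, 95% interval -0.54 to 0.04, limma adjusted p = 0.359). Its second probe read close to the array median. Mmp9, the gelatinase of leukocytes and keratinocytes, read 1198 to 1261 in wild type and 1149 to 1288 in knockout, near the level of most probes, so a change at a low level could be missed. Mmp16 and Mmp24, which code for the transmembrane MT3-MMP and MT5-MMP, had knockout arrays above wild-type arrays, at 2954 ± 75.8 against 2578 ± 174 and at 5081 ± 377 against 4267 ± 326 (SD, n = 3 each). Neither passed (limma adjusted p = 0.191 and 0.150), although Mmp24 was called after quantile normalization (adjusted p = 0.0263, with 0.0259 to 0.438 over 14 alternatives). Mmp23 read 13955, 22974 and 16775 in wild type and 26105, 19251 and 20491 in knockout, which overlap. Mmp19 (-0.03) and Mmp28 (-0.01) were bright and did not pass, and Mmp21 and Mmp25 were dim.

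**Figure D3:**
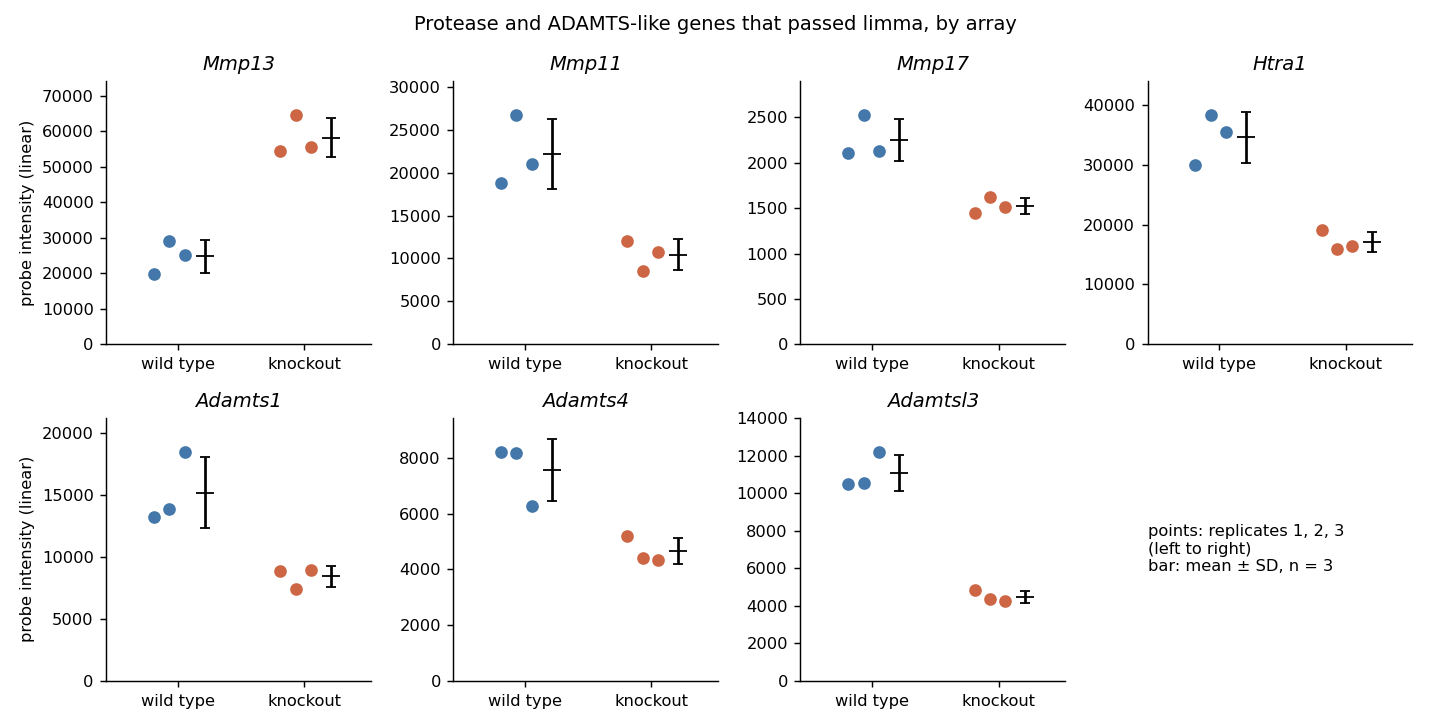
Probe intensity (linear scale from 0) in each array for the 7 protease and ADAMTS-like genes that passed limma; points are replicates 1, 2 and 3 from left to right, and bars are the mean and SD (n = 3). The genotypes do not overlap in any panel, with Mmp13 higher in knockout and the other 6 genes lower.

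The ADAMTS family had falls and no rise among its called genes. Adamts1, which cuts versican and aggrecan, read 13241, 13847 and 18484 in wild type and 8879, 7443 and 8997 in knockout. Every knockout value was below every wild-type value, and wild type replicate 3 was the highest. The difference was -0.84 ± 0.13, or 1.79-fold lower (limma adjusted p = 0.00625). Of its other probes, 1 near the array median showed a difference of -0.02, and the other, at 1656 ± 134 and 1356 ± 75.3 (SD, n = 3 each), did not pass (limma adjusted p = 0.102 over all probes). Adamts4, or aggrecanase-1, read 8214, 8188 and 6274 in wild type and 5188, 4425 and 4347 in knockout. The groups were apart, by 1.62-fold on average (-0.69 ± 0.12, limma adjusted p = 0.00976). It was not called after background correction (adjusted p = 0.0524) or without knockout replicate 3 (0.0712), with 0.00199 to 0.0712 over 14 alternatives.

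Among the 15 other ADAMTS genes 12 were bright and did not pass. Adamts9, a further aggrecan- and versican-cutting protease, had the smallest adjusted p of these. It read 14075, 17609 and 15736 in wild type and 12602, 12730 and 12133 in knockout, with no overlap and a difference of -0.33 ± 0.09 (limma adjusted p = 0.0668). It was called with array weights, with the mean of its probes and without wild type replicate 1. Adamts19 (-0.24 ± 0.08) also had separate groups, at 1016 to 1151 against 902 to 954, and did not pass (limma adjusted p = 0.111). Its second probe went the other way without overlap, at 747 to 788 in wild type and 808 to 852 in knockout (0.11). That probe did not pass either. Both probes read near or below the median of all probes, where signal and background were not separable. Adamts19 was called under 2 of 14 alternatives (adjusted p 0.0123 to 0.637 over the 14). Adamts12, which cuts the cartilage protein COMP, showed a difference of -0.04 with a 95% interval of -0.20 to 0.13. The remaining bright genes of the family, Adamts6, Adamts7, Adamts8, Adamts10, Adamts13, Adamts15, Adamts16, Adamts17 and Adamts20, did not pass, and the 12 lay between -0.33 and 0.16. Adamts3, Adamts14 and Adamts18 were dim.

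ADAMTS-like proteins resemble ADAMTS proteases but lack the protease domain, and several bind fibrillin microfibrils. Adamtsl3 showed the largest fall of all members in these arrays. It read 10480, 10523 and 12187 in wild type and 4844, 4345 and 4258 in knockout. The knockout arrays stood at 40.5% of wild type, well outside the spread of either group (-1.30 ± 0.09, limma adjusted p = 7.74e-05). Its other probes read 872 ± 15.2 and 1141 ± 65.3 in wild type (SD, n = 3), near the median of the arrays. Neither passed. Averaged over all 3 probes the difference was -0.48, which was still called. Adamtsl1 read 1118, 1660 and 1331 in wild type and 2291, 1905 and 1671 in knockout. Its groups were just apart, and it did not pass (0.52 ± 0.15, limma adjusted p = 0.0909), but it was called under 4 of 14 alternatives, without wild type replicate 2 among them (adjusted p = 0.0106, with 0.00877 to 0.284 over the 14). Adamtsl2 (-0.37 ± 0.13, limma adjusted p = 0.141) had knockout arrays of 945 to 990 and a wild type range of 993 to 1402. It was called under 3 of 14 alternatives, without wild type replicate 1 among them (-0.53, adjusted p = 0.00377, with 0.00377 to 0.426 over the 14). Adamtsl4 (-0.01 ± 0.19) overlapped. These 4 genes thus gave 1 fall and 3 genes that did not pass.

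**Figure D4:**
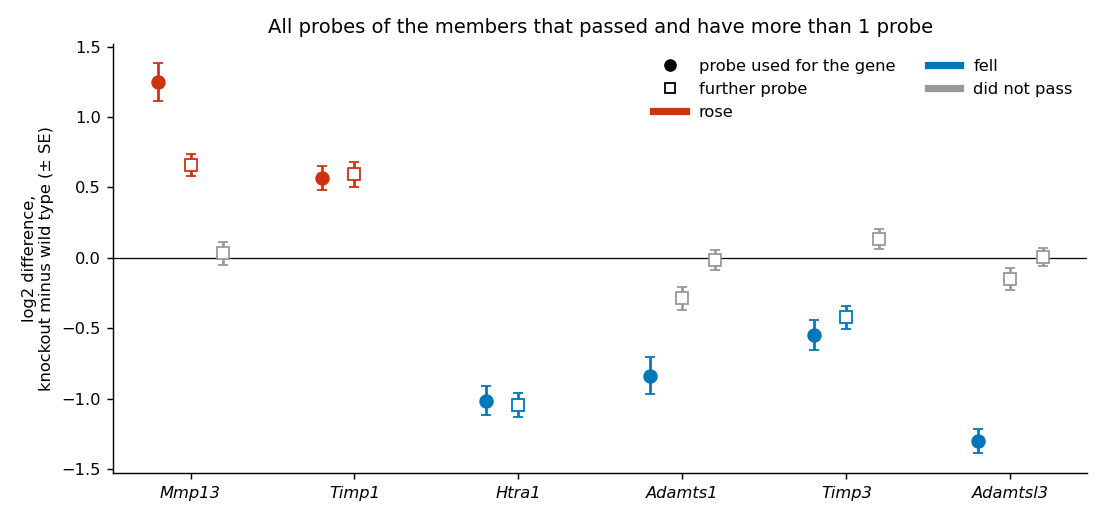
Log2 difference (knockout minus wild type) with its SE at each probe of the 6 called members that have more than 1 probe, ordered from the brightest probe on the left; filled circles are the probes used and open squares the others, with colour for the call over all probes. Both probes of Timp1 and of Htra1 were called, as were 2 of 3 for Mmp13 and Timp3 and 1 of 3 for Adamts1 and Adamtsl3.

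Htra1 codes for a secreted serine protease that cuts fibronectin and proteoglycans. It read 30026, 38274 and 35423 in wild type and 19043, 15841 and 16440 in knockout. There was no overlap, and the difference of -1.01 ± 0.11 is 2.02-fold (limma adjusted p = 0.000747). Its second probe gave -1.04 ± 0.08, so both agree in size. Bmp1, the procollagen C-proteinase that trims collagen precursors so that fibrils can form, read 54729, 78397 and 67332 in wild type and 68987, 56532 and 58039 in knockout. These overlap (difference -0.12, 95% interval -0.42 to 0.18). Its enhancer gene Pcolce differed by -0.21 and did not pass.

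The TIMP genes split. Timp1 read 83276, 80519 and 87964 in wild type and 137726, 121504 and 114452 in knockout. Every knockout array was above every wild-type array, and the difference was 0.57 ± 0.09 (limma adjusted p = 0.00523). Its second probe gave 0.59 ± 0.09. Timp3, whose protein is bound to the matrix, went the other way, with 78395, 86585 and 80406 in wild type and 63338, 58036 and 47535 in knockout. Again the groups were apart, and knockout replicate 3 was the lowest (-0.55 ± 0.11, limma adjusted p = 0.0174). Of its other probes 1 also fell (-0.42 ± 0.08), and the third, near the array median, gave 0.13 ± 0.07.

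The calls for the TIMP genes depended on the setting. Timp1 was not called after background correction (adjusted p = 0.0873), with 0.000336 to 0.0873 over 14 alternatives. Timp3 was called under 8 of 14 alternatives (adjusted p 0.00144 to 0.130). Settings that ended its call included background correction (0.130) and the mean of its probes (0.0557). The loss of 1 array also did so: wild type replicate 3 (0.0848) or, in knockout, replicate 2 (0.0560) or replicate 3 (0.0588). A further setting that ended the calls of both Timp1 and Timp3 is given in the closing section. Both genes kept their direction under all 14.

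Timp2 read 221107, 246679 and 239892 in wild type and 293987, 262637 and 271533 in knockout. The knockout arrays were all above the wild-type arrays, with a 95% interval of 1.03-fold to 1.32-fold, but the gene did not pass over all genes (limma adjusted p = 0.148), except after quantile normalization (0.0410, with 0.0410 to 0.487 over 14 alternatives). Timp4 was dim, at 857 to 963 in wild type and 887 to 945 in knockout. Reck, a membrane-anchored inhibitor of several MMPs, read 12400, 15920 and 16262 in wild type and 14109, 13429 and 15824 in knockout. These overlap, with a 95% interval of 0.816-fold to 1.17-fold.

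**Figure D5:**
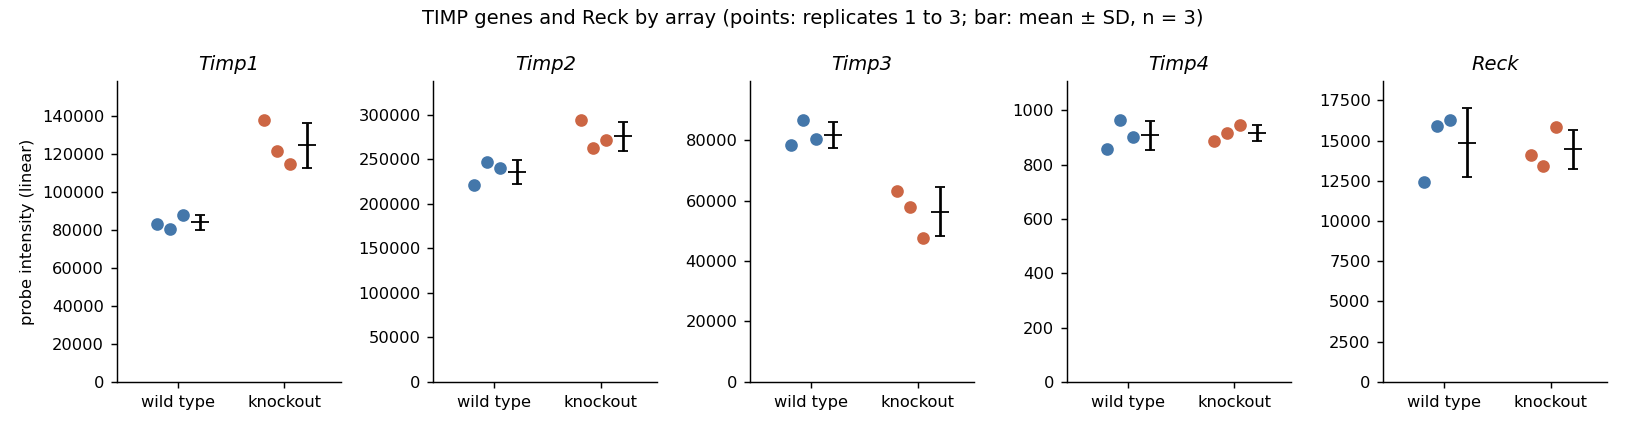
Probe intensity (linear scale from 0, a scale of its own in each panel) in each array for the 4 TIMP genes and Reck; points are replicates 1 to 3 and bars the mean and SD (n = 3). Timp1 is higher and Timp3 lower in every knockout array, Timp2 sits slightly higher without passing limma, and Timp4 and Reck overlap.

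In the RefSeq gene table Timp1, Timp3 and Timp4 each lie inside a synapsin gene, and the synapsin genes were measured too. Syn1, which holds Timp1, read 3420 ± 233 and 2991 ± 324 (SD, n = 3 each) and did not pass (limma adjusted p = 0.327). Syn3, which holds Timp3, read 1061 ± 49.6 and 1016 ± 14.2 and did not pass, and Syn2, which holds Timp4, was dim. Timp1 is on the X chromosome. The X-inactivation RNA Xist read 6851, 13721 and 6071 in wild type and 15361, 11097 and 11546 in knockout, which overlap. The Y-linked genes Kdm5d, Uty and Eif2s3y differed by -0.17, -0.01 and 0.17 on the log2 scale, and none passed, though the arrays of Kdm5d did not overlap (1273 to 1337 and 1116 to 1227). The part of cell sex in the Timp1 difference was not tested.

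Of the 32 ADAM genes 17 were bright, and their differences ran from -0.75 to 0.39. Adam17, the sheddase of tumour necrosis factor and of ligands of the epidermal growth factor receptor, read 10818, 11505 and 10847 in wild type and 11295, 10419 and 10019 in knockout. The groups overlapped, with a 95% interval of 0.849-fold to 1.08-fold. Rhbdf1, whose iRhom protein carries ADAM17 to the cell surface, also overlapped (difference -0.06). Rhbdf2 was higher in every knockout array, at 1250 to 1426 against 1113 to 1233, and did not pass (0.17, limma adjusted p = 0.327). Adam10, the sheddase of Notch and cadherins, read 858 to 1066 over all arrays at its brighter probe, a level not distinguishable from that of most probes, where a change could be missed. Tspan14, a tetraspanin partner of ADAM10, fell from 10051 ± 761 to 7873 ± 523 (SD, n = 3 each), a difference of -0.35 ± 0.09 (limma adjusted p = 0.0440). The other tetraspanin genes of the related list, Tspan5, Tspan10, Tspan15, Tspan17 and Tspan33, did not pass. Their differences were 0.09, 0.08, -0.08, 0.06 and -0.0030.

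Adam33, an ADAM of mesenchymal cells, had the largest difference of the family without passing. It read 4820, 10385 and 6591 in wild type and 4977, 3666 and 3798 in knockout. Wild type replicate 1 overlapped the knockout arrays (-0.75 ± 0.24, limma adjusted p = 0.118), and without that array the gene was called (-1.01, adjusted p = 0.0113). Without wild type replicate 2, the highest array, the difference was -0.46 and did not pass (adjusted p = 0.122, with 0.00773 to 0.364 over 14 alternatives). Adam12, a fibroblast ADAM that cuts insulin-like growth factor binding proteins, read 2302 ± 78.8 and 2040 ± 49.1 (SD, n = 3 each). Its groups were apart, and it did not pass (-0.17 ± 0.07, limma adjusted p = 0.209). Adam15 (-0.13), Adam9 (0.06) and Adam23 (0.21), a brain-type ADAM without protease activity, overlapped. The other bright members of the family, Adam1b, Adam4, Adam5, Adam6a, Adam8, Adam11, Adam20, Adam22, Adam24, Adam28 and Adam32, did not pass, and of these Adam8 alone had groups that did not overlap (1294 to 1416 against 1487 to 1541). Many ADAM genes are known from the testis or epididymis. Of them Adam2, Adam3, Adam7, Adam18, Adam21, Adam25, Adam26a, Adam26b, Adam29, Adam30, Adam34 and Adam39 were below the median of all probes in both genotypes, as were Adam6b, Adam10 and Adam34l. Other genes known from the testis, Adam1b, Adam4, Adam5, Adam6a, Adam20, Adam24 and Adam32, were bright. Adam32 read 1676 ± 448 and 2203 ± 597 (SD, n = 3 each), and the rest of these had means of 947 to 1146, near the cut. None of the 7 male germ cell markers had a mean above 2000.

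The 26 dim members as a whole ranged from 737 to 1143, with differences between -0.11 and 0.19 and no call. At these levels signal and background were not separable, and the lack of a call says little. The same limit holds for bright members in this range, among them Adam6a (944 to 1031), Adamts20 (915 to 1062), Adamts17 (976 to 1093) and Adam28 (1014 to 1089). Counts of bright genes that did not pass include such genes. The 46 bright members that did not pass had SEs of 0.07 to 0.24. Within wild type, replicate 2 was the highest array for 33 of the 55 bright members and replicate 1 the lowest for 35. Within knockout, replicate 1 was the highest for 34. Over all bright genes those shares were 62.4%, 58.5% and 64.5%, beside 60.0%, 63.6% and 61.8% of the members. Mmp2, Mmp23, Bmp1, Adam33 and Adamtsl4, with wide wild-type ranges, followed this order in wild type. Of the called members, Mmp13, Mmp11, Mmp17, Htra1 and Timp3 followed it too, and Adamts1, Adamts4, Adamtsl3 and Timp1 did not.

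A list of related genes gave the partners, activators, substrates and regulators of these enzymes. Of 80 listed, 71 were measured, 7 rose, 5 fell and 59 did not pass, and the median difference was -0.03. The 12 called genes are 16.9% of those measured, beside 6.28% of all genes, and 60 of the 71 were bright, for which the share over all bright genes was 9.51%. The list was chosen with earlier results of these data known, so these shares describe it and are not a test. The plasminogen activators Plat and Plau and the receptor Plaur, which generate plasmin, an activator of MMP precursors, rose. Plat read 23505 ± 1285 and 35106 ± 992 (SD, n = 3 each), a log2 difference of 0.58 ± 0.07 (limma adjusted p = 0.00181). The log2 differences of Plau and Plaur were 0.42 and 0.43. Furin, which activates ADAMs, ADAMTS proteases and Mmp11 and Mmp14, differed by -0.21 and did not pass (limma adjusted p = 0.279).

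Substrates went both ways. Versican (Vcan), the proteoglycan cut by Adamts1 and Adamts4, read 9121, 10723 and 12058 in wild type and 6238, 5150 and 6462 in knockout. The groups were apart, with a difference of -0.84 ± 0.12 (limma adjusted p = 0.00385). Aggrecan (Acan) read 1021 ± 76.6 and 970 ± 80.2, close to the array median. Comp, a cartilage matrix protein, fell (-1.05 ± 0.16), as did Col1a2 (-0.84 ± 0.17) and the membrane peptidase gene Dpp4 (-0.84 ± 0.10). Col2a1, the cartilage collagen cut by collagenase-3, rose from 1207 ± 21.8 to 18527 ± 3537 (SD, n = 3 each). Its log2 difference was 3.92 ± 0.12, or 15.2-fold (limma adjusted p = 7.14e-07). Ltbp1, which holds latent TGF-beta in the matrix, rose from 5563 ± 526 to 10669 ± 1017. Sned1, a matrix protein gene that was close to the array median in wild type, was called higher as well (0.40 ± 0.09). With replicate 3 of either genotype left out 4 rose and 3 fell, and 3 fell without knockout replicate 2.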

How the data were processed

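Biotin-labelled cRNA from total RNA was hybridised to Illumina bead arrays, as the labels' protocols say. The table the authors deposited holds linear probe intensities, with a median of 1000 in each array and no subtraction of background to 0. Scanner, software and bead summary were not given in the sources used here, and arrays give no counts, so their number limits the precision. Of 45281 probes, 34885 had 1 gene symbol in the supplied annotation, 18 had several and 10378 none, and the last 2 kinds were not tested. The probe with the highest mean stood for a gene, which gave 19057 genes.

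Log2 intensities entered limma 3.58.1 under R 4.3.3 (lmFit, then eBayes, with genotype as the only term, 4 residual and 5.13 prior degrees of freedom), with two-sided p-values adjusted by Benjamini-Hochberg over all genes. The 95% intervals come from the same fit and are not adjusted for the number of genes. On simulated data with the means and spread of these arrays (19057 genes, knockout against wild type), the test called 40.0% of genes with a log2 change of 0.5, 91.0% at 1 and 100% at 2, with 7 of 18857 unchanged genes. Changes were placed only in genes above the median of all probes, and noise was drawn independently for each gene and array. Changes in dim genes and shifts shared by many genes of an array were therefore not covered.

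The members and gene lists were chosen with earlier results of these data known. Named were all called members, the TIMPs, Reck, Bmp1, Htra1, Mmp2, Mmp3, Mmp9, Mmp13, Mmp14, Adam10, Adam17, Adamts1, bright members with an unadjusted p under 0.05, and called related genes. Others named, such as the genes beside Mmp13, the synapsins, the sex-linked genes and the other Jun and Fos genes, were picked with their values in view. Alternatives are given in the closing section. Marker lists for neutrophils (0 of 5 called), endothelium (Emcn rose, of 6), cartilage (Col2a1 rose and Sox9 fell, of 8), bone (Ibsp rose, of 4) and male germ cells (0 of 7 called) stood beside those in the report. A search of member proteins for the zinc-binding motif was planned and not carried out, since protein sequences were not used here. Promoter windows and gene order came from RefSeq (GRCm38.p6). The pairing of replicate numbers is not stated in the labels.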

Additional observations from a re-analysis of the deposited data

How the results depend on the processing

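All 9 called members kept their direction under 14 alternatives each, and Mmp13, Adamtsl3, Htra1 and Adamts1 were also called under all 14. Median centring left each value reported here as it was, since the array medians were already equal, and is not among the 14. The test over all probes changed the call of none of the 28 members tested by name, nor did the restriction to genes above the median, from which Timp4 and Adam10 drop out. Of the members, 7 rose after quantile normalization, 5 rose and 11 fell with array weights, and 1 rose after background correction (limma's normexp with an offset of 50). With the replicate block 1 member rose and Mmp11, Timp1 and Timp3 were not called (adjusted p = 0.0576, 0.0520 and 0.0749), and same-numbered arrays did not deviate together (correlations of -0.414, -0.338 and 0.224), so the numbers are not taken to pair the samples. Of arrays with different numbers, wild type replicate 2 with knockout replicate 1 gave 0.471 and wild type replicate 1 with knockout replicate 2 gave 0.395, so that of the 3 numbers replicate 3 alone correlated best with itself, and no fit with crossed numbers was made. Leaving out each array gave 2 to 4 rises and 4 to 10 falls. Over all genes the rises numbered 1009 after quantile normalization, 222 after background correction, 985 with array weights and 179 with the replicate block, and the falls 316 after background correction, 2282 with array weights and 236 with the replicate block. Leaving out each array gave 207 to 729 rises and 244 to 1217 falls. For the related genes, an application of the alternatives added after the data had been seen, background correction and the replicate block each gave 3 rises and 3 falls, array weights 15 falls and the mean of all probes 4 rises, with 4 to 7 rises and 3 to 6 falls when each array was left out. The causes of these shifts were not tested. With array medians equal, signal near the median of all probes limits what can be seen of the 26 dim members and of bright members close to that median.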
